A study of Mus musculus with 9 samples.

Results

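The transcripts of 49 genes that act in mitosis were followed in PT-22 cells, a line of mouse kidney proximal tubule cells, over 12 days. The genes encode cyclins and kinases that drive cells into mitosis, kinetochore and spindle proteins, the spindle checkpoint, the anaphase machinery and proteins of cytokinesis. They were picked by gene symbol, without a threshold on any measured value but with earlier results of these data known. Each symbol matched 1 of the 55487 gene rows of the deposited count table. All 49 passed the filter on low counts, which left 16353 genes for testing.

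Mitosis is run by the kinase CDK1, which is switched on by B-type and A-type cyclins and by CDC25 phosphatases. Kinetochores then bind chromosomes to spindle microtubules, and the spindle checkpoint holds back the anaphase-promoting complex (APC/C) until every chromosome is attached. The APC/C next marks securin and cyclin B for destruction, which frees separase to cut cohesin. Most of these genes are transcribed late in the cell cycle, in G2 and M phase, through B-MYB, FOXM1 and the MuvB complex, and are kept low in resting cells by the DREAM complex. Adult proximal tubule cells divide rarely in the healthy kidney and re-enter the cycle after injury.

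All 9 libraries came from the line PT-22,Pax8-pTRIPZ. Every group shares the genotype Pax2-/-,Pax8fl/fl,Rosa-CreERT2 and the medium, DMEM with 3% fetal bovine serum. CreERT2 is a recombinase that tamoxifen switches on, and pTRIPZ is a vector for doxycycline-driven expression. Day 0 libraries had no treatment, and day 6 libraries followed 1 uM 4-hydroxytamoxifen, given to remove PAX8. Day 12 libraries followed 1 uM 4-hydroxytamoxifen and then doxycycline at 1 ug/ml, given to restore PAX8. Each group held 3 libraries, A, B and C, of polyadenylated RNA. The labels give 2 days of 4-hydroxytamoxifen in one field and 6 days of depletion in another, and state that cells had reached confluence when the drug was added. For doxycycline they give an interval of 2 days in one field and 6 days in another. Whether the replicates are independent cultures is not stated, and a p-value here covers the spread among libraries, which could be technical. No vehicle-treated cells, no untreated cells of a later day and no doxycycline-free cells at day 12 were analysed here. Days in culture, confluence, either drug and the PAX8 level therefore cannot be told apart in these comparisons, and whether the line is 1 clone is not stated.

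The libraries held 56397100 to 86765292 counts over genes and 21213 to 22139 detected genes each. Pax8, the gene targeted by Cre, was not lower after 4-hydroxytamoxifen. It stood at 292, 289 and 292 CPM at day 0, 399, 404 and 410.5 CPM at day 6, and 496, 503 and 487 CPM at day 12 (CPM, a gene's counts over the TMM-scaled size of its library). All 3 day 6 libraries exceeded all 3 day 0 libraries, so no direction given here is a measured response to a lower Pax8 transcript level; reads of the floxed gene and of the vector were not separated. Of 14 proximal tubule markers, 5 passed the filter, with Aqp1, Lrp2 and Cubn among them, while Slc34a1, Slc5a12 and Slc22a6 were at 0 in every library. Of the 5 past the filter, 4 fell at day 6 with the members and Aqp1 rose. Over all tested genes 31.4% fell and 33.5% rose. The 14 markers summed to 424 to 461 CPM in day 6 libraries and 557 to 656 CPM in day 0 libraries. Lrp2, which encodes the endocytic receptor megalin, had the largest fall of the 5 (log2 -2.74); it was named after its value was seen. Whether these changes have a part in the falls of the 49 genes was not tested. Mitochondrially encoded genes took 7.10 ± 0.0724% of the counts in day 6 libraries and 6.79 ± 0.138% in day 0 libraries (mean ± SD of 3). At day 12 they took 2.44%, 3.96% and 2.10% in libraries A, B and C.

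All 49 mitosis and spindle genes were lower at day 6 than at day 0. Their summed level was 2804 ± 24.6 CPM in day 6 libraries and 5366 ± 63 CPM in day 0 libraries (mean ± SD of 3), and per transcript length it was 1676 ± 14.5 TPM at day 6 and 3103 ± 50.1 TPM at day 0. In edgeR's quasi-likelihood test, 49 of 49 fell at an adjusted p under 0.05, and 0 rose. Over all tested genes 31.4% fell and 33.5% rose, 64.9% in either direction. In all 49 the 3 day 6 libraries lay below the 3 day 0 libraries without overlap, against 33.4% of all genes. The median log2 fold change of day 6 against day 0 was -0.95 in the 49 genes and 0.02 over all genes. It ran from -1.46 in Mybl2 to -0.26 in Pttg1, so a member stood at 36.2% to 84.0% of its day 0 level, with a median of 51.6%. A fall of 1.5-fold or more was met by 46 of 49, against 9.58% of all genes, and one of 2-fold or more by 15 of 49, against 4.65%. Bub3, Pttg1 and Ckap2 were the 3 below 1.5-fold.

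At day 12 the set had not returned to its day 0 level. All 49 genes were still lower at day 12 than at day 0, where 31.7% of all genes were, of 66.4% that differed in either direction, with no overlap between libraries in 49 against 32.9% of all genes. On TPM 45 were lower, with Bub3, Pttg1, Spc25 and Ttk not called. The median log2 fold change of day 12 against day 0 was -0.88 in the 49 genes and 0.03 over all genes. Members stood at 35.7% to 89.8% of day 0, with a median of 54.3%. Between day 12 and day 6 the genes split. In that step 22 rose, 4 fell and 23 were not called, where 22.6% of all genes rose and 22.7% fell, 45.3% together. The rises were 1.07-fold to 1.47-fold and the falls 1.06-fold to 1.47-fold. This split moved with the scaling: 29 rose and 3 fell with upper-quartile factors, and 38 rose and 2 fell on log2(TPM + 1) with limma. Of all calls in that step, 50% were rises with TMM, 60.5% with upper-quartile factors and 90.1% on TPM, where the median of all genes shifted to 0.16. On TPM, Foxm1, Bub3, Cdca3, Kif11, Ckap2 and Top2a had positive values, and all of these but Foxm1 were called higher there. Another 7 members with a negative value that was not called, Ccnb1, Cdc25c, Cenpe, Espl1, Kif23, Kif4 and Nusap1, also had a positive value on TPM, again not called. The 3 day 12 libraries lay above the 3 day 6 libraries in 26 members, against 27.7% of all genes, and below them in 4, against 26.3%. The 2 steps share the day 6 libraries and the day 12 comparisons share the day 12 libraries, so these counts are not independent of each other.

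**Figure D1:**
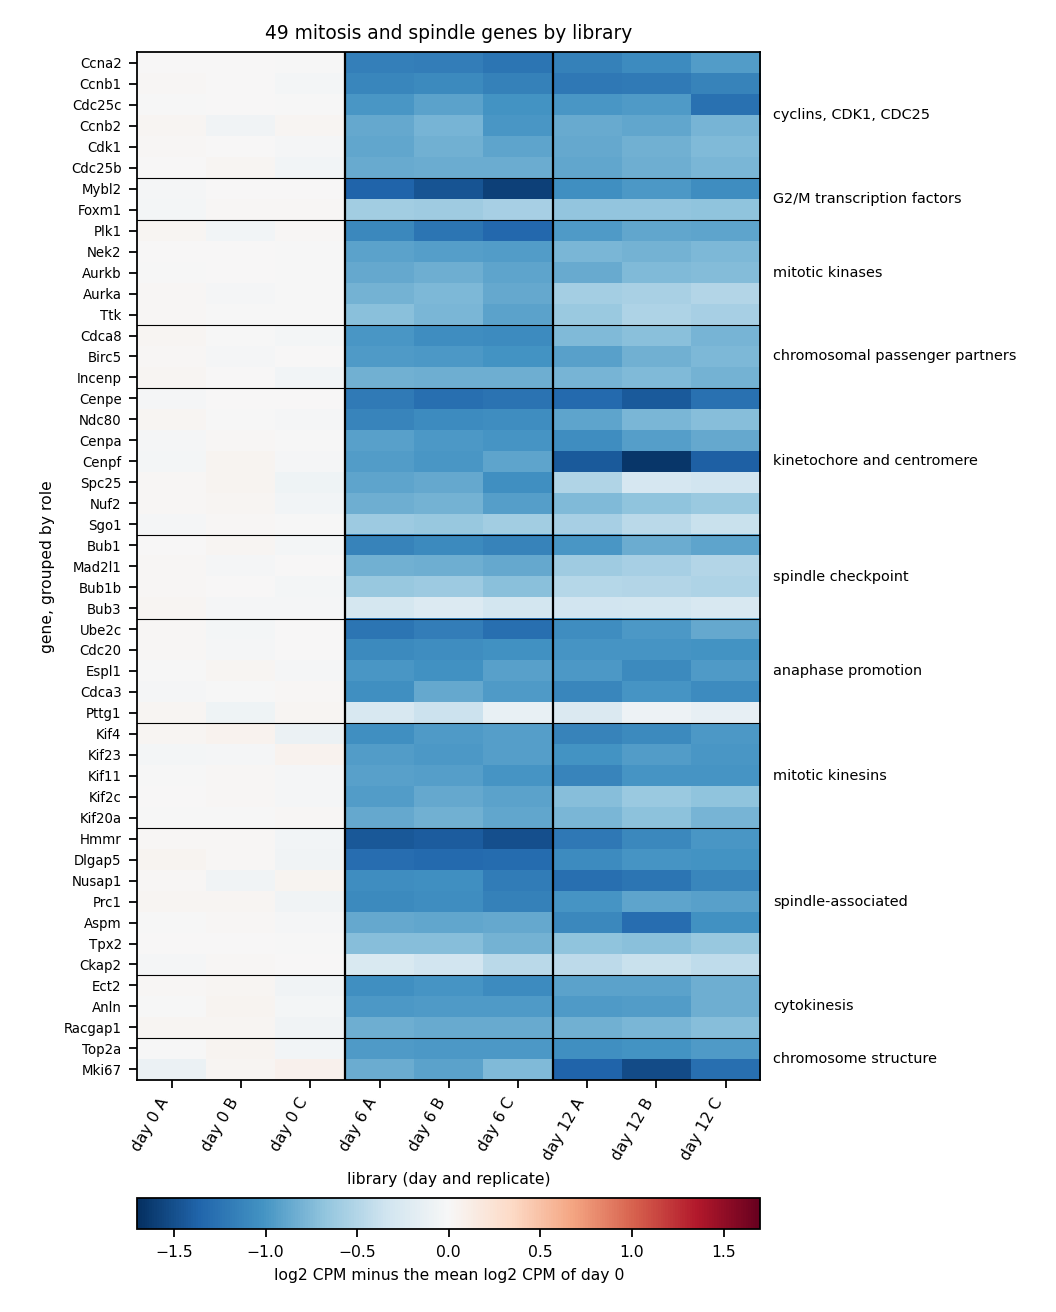
Level of each of the 49 genes in the 9 libraries, as log2 CPM minus the gene's mean log2 CPM over the 3 day 0 libraries. Columns are libraries in order of day, rows are genes grouped by role, and blue marks values below day 0. Every gene is blue in the 3 libraries of day 6, faintest in Bub3, Pttg1 and Ckap2, and Cenpf and Mki67 are darker at day 12 than at day 6.

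The bulk RNA of a well mixes cells in all stages, so fewer cells in G2 and M phase and less of these transcripts per cell cannot be told apart. The counts were large: the lowest count of any of the 49 genes in any library was 299. The coefficient of variation between libraries of 1 group had a median of 2.09% at day 0, 2.83% at day 6 and 3.97% at day 12.

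The members' promoters were searched for motifs known from G2/M genes. The shares found depend on the choice of genes and not on their fold changes. The RefSeq promoter table for GRCm38.p6, with 300 bases a gene from 250 before to 50 after the annotated start, held 41 of the 49 genes. Ccna2, Cdc25c, Foxm1, Aurkb, Incenp, Kif20a, Tpx2 and Dlgap5 were not matched. For 3 members with more than 1 entry the first was used. The RefSeq start can differ from the gene start in the GENCODE M21 annotation. The windows of Pttg1, Kif2c, Cdca3, Cdca8 and Kif4 lie wholly downstream of the GENCODE start, and those of Mad2l1 and Mybl2 end upstream of it. A match or its absence in these genes refers to the RefSeq window alone. Known G2/M promoters often carry a CHR element, to which MuvB binds, downstream of CCAAT boxes, to which NF-Y binds. Both strands were searched. For the CHR the letters were TTTGAA in one form, or else TTTAAA in the other, and the CCAAT box was searched by its own name. For E2F the letters TTGGCGC were searched, as were the related forms TTCCCGC and then TTGCCGC and finally TTCGCGC. The first of these, read on the other strand, can share letters with the CCAAT box, as it does in the Ccnb1 promoter. Each of the following sequences is written 5′ to 3′ on the gene's strand with every match in capitals.

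Shown first are the APC/C activator Cdc20 (chr4:118437294-118437593, minus strand), cyclin B2, Ccnb2 (chr9:70421505-70421804, minus strand), the kinases Plk1 (chr7:122159185-122159484, plus strand) and Cdk1 (chr10:69352863-69353162, minus strand), and the ubiquitin-conjugating enzyme Ube2c (chr2:164769679-164769978, plus strand). These 5 fell 1.81-fold to 2.35-fold at day 6 and hold both a CHR and a CCAAT match.
Cdc20: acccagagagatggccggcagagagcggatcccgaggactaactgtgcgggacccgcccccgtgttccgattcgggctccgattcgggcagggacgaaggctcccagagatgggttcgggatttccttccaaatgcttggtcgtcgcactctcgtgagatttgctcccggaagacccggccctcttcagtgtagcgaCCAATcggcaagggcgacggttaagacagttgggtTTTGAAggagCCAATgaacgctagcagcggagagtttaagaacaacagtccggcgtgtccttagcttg
Ccnb2: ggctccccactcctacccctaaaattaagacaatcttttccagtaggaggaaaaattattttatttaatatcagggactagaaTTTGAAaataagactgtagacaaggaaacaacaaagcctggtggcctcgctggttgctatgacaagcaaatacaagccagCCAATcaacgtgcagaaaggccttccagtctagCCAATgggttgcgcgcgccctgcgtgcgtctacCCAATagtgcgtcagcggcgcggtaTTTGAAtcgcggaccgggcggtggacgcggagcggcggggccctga
Plk1: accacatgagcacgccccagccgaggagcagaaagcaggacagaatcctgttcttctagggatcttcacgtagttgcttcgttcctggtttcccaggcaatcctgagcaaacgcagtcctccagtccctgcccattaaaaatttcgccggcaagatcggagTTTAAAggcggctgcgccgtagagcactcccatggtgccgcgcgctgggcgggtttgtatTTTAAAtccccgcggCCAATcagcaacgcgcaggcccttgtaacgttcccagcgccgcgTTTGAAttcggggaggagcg
Cdk1: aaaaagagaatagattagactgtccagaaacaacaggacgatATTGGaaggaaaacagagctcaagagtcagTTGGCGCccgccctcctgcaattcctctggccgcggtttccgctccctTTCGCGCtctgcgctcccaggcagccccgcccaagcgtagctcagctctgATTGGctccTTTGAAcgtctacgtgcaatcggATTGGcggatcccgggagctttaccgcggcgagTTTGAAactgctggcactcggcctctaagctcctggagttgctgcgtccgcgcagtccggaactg
Ube2c: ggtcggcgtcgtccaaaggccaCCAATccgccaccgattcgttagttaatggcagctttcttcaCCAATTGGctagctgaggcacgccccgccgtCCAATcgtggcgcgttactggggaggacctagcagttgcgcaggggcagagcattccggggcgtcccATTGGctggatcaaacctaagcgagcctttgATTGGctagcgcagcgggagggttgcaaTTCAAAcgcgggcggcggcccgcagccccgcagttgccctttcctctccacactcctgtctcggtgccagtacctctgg

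Bub3 (chr7:131560120-131560419, plus strand) is shown because it holds the same letters and fell little. Mybl2 (chr2:163054385-163054684, plus strand) and Pttg1 (chr11:43425932-43426231, minus strand) are shown because they had the largest and the smallest fall, and neither window holds a searched motif.
Bub3: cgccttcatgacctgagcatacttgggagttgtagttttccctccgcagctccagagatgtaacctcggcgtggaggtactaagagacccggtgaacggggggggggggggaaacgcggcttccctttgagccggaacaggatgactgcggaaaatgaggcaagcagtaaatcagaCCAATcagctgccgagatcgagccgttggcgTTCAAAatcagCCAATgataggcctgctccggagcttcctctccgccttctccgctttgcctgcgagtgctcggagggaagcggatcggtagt
Mybl2: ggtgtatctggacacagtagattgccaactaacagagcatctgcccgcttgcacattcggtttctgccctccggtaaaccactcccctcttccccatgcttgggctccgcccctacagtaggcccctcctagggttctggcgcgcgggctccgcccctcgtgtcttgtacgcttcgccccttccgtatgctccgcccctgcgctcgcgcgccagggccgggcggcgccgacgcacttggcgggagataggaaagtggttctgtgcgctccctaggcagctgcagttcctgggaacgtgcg
Pttg1: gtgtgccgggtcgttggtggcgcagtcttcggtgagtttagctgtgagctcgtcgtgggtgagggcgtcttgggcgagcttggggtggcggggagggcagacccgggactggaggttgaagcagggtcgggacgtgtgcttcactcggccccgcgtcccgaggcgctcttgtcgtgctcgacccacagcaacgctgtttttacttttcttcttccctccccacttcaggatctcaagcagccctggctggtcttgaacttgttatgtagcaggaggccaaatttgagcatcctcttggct

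TTTGAA stood in 29 of 41 member promoters (70.7%), in 18.1% of the 27025 promoters of the table and in 11.9% of the 11087 that belong to tested genes. TTTAAA stood in 24.4% of member promoters, against 13.2% of all and 8.83% of tested ones. A CCAAT box stood in 32 of 41 (78.0%), against 37.9% and 39.1%, and 21 of 41 (51.2%) held 2 or more, against 12.2% and 15.1%. A CHR of either form together with a CCAAT box was found in 28 of 41 (68.3%), against 10.9% of all and 7.91% of tested promoters. The E2F letters were found in 5 of 41 (12.2%), against 9.69% and 17.0%, a share close to the background. It covers only the exact letters searched. Near forms, such as stand in the Mybl2 window, were not counted. With the window narrowed to run from 100 bases before to 50 after the start, a CHR of either form stood in 29 of 41 (70.7%). The shares were 12.9% of all and 7.32% of tested promoters. A CCAAT box lay upstream of a CHR in 27 members. The closest such pair in each promoter had a median of 28 bases between the starts of the motifs (range 9 to 153). That pair need not hold the CHR nearest the gene start, and the share of other promoters with this order was not counted. These matches describe letters in a window and not bound sites.

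Genes with and without these letters overlapped in the size of their fall. The 32 genes with a CHR match had a median log2 fold change of -0.96 at day 6 against day 0 (range -1.45 to -0.28). The 9 without one had a median of -0.86 (range -1.46 to -0.26). The strongest and the weakest fall of the 41, in Mybl2 and Pttg1, were both among the genes without a match. The RefSeq windows of both genes do not span the GENCODE start.

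**Figure D2:**
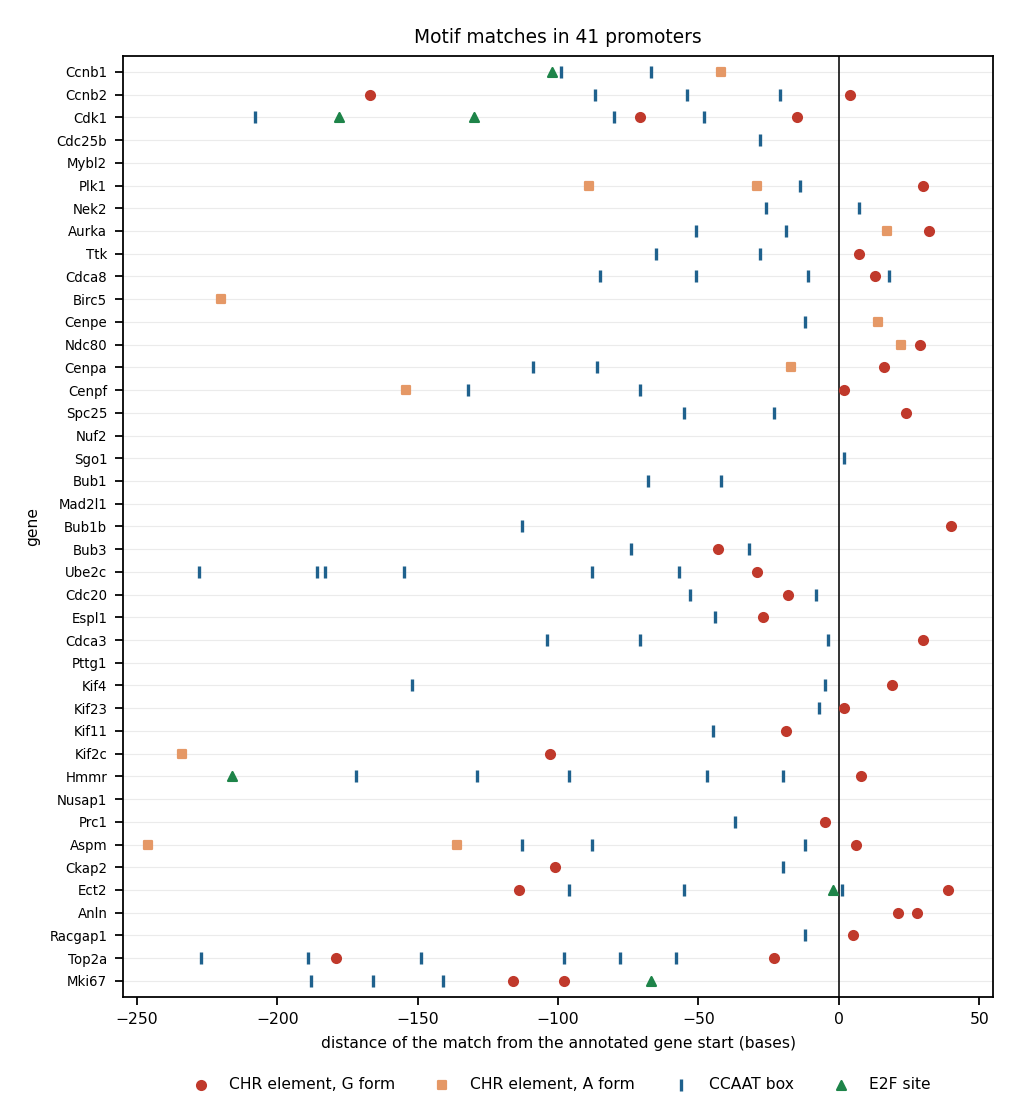
Position of each motif match relative to the annotated gene start in 41 promoters, in bases, with negative values upstream. Circles mark TTTGAA, squares TTTAAA, bars CCAAT and triangles the E2F letters. The closest pair of a CCAAT box upstream of a CHR had a median spacing of 28 bases. Mybl2, Nuf2, Mad2l1, Pttg1 and Nusap1 show no match.

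The cyclins and CDK1 with its activators all fell at day 6, by a median log2 fold change of -0.93 over 6 genes. Ccnb1, cyclin B1 (ENSMUSG00000041431, GRCm38 chromosome 13, 100778650 to 100786570, minus strand), is the partner with which CDK1 triggers mitosis. It had 149.7, 149 and 145 CPM at day 0, 68.7, 69.9 and 66.7 CPM at day 6, and 63.8, 64.3 and 67.3 CPM at day 12. The 3 groups' libraries separated day 0 from both later days, while those of day 12 and day 6 overlapped. The log2 fold change of day 6 against day 0 was -1.11 ± 0.032 (SE), edgeR adjusted p = 1.12e-13, and that of day 12 against day 6 was -0.07 (95% interval -0.14 to -0.00). Of the 75-base stretches of its longest transcript, 35.2% also occur in other annotated genes, with the pseudogene Ccnb1-ps sharing the most. Some of the Ccnb1 counts may therefore belong elsewhere.

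Cdk1, the kinase itself (ENSMUSG00000019942, GRCm38 chromosome 10, 69335146 to 69352938, minus strand), had the highest level per transcript length of the 49 genes, at 336 TPM at day 0. Its libraries held 169, 168 and 164 CPM at day 0, 90.8, 95.1 and 89.95 CPM at day 6, and 91.5, 94.8 and 99.5 CPM at day 12. It stood lower in all 6 later libraries, with no gap between day 12 and day 6. It fell 1.81-fold at day 6 (log2 -0.86 ± 0.035 (SE), edgeR adjusted p = 6.66e-12) and was not called afterwards (log2 0.05, 95% interval -0.02 to 0.12). Ccna2, cyclin A2, fell by the most of the 6 genes (log2 -1.19 ± 0.041 (SE)) and was the 1 of them that rose again by day 12 (log2 0.14 ± 0.041 (SE), edgeR adjusted p = 0.0128). That rise was not called without library C of day 12 (adjusted p = 0.0672) or of day 6 (0.0612). Ccnb2, cyclin B2, and the CDK1 activators Cdc25b and Cdc25c had log2 fold changes of -0.88, -0.84 and -0.97 at day 6 and were not called between day 12 and day 6.

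The 2 transcription factors of the G2/M programme differed in size. Mybl2 encodes B-MYB, which joins MuvB to switch on G2/M genes. It held 36.8, 37.3 and 37.4 CPM at day 0, 14.5, 13.5 and 12.4 CPM at day 6, and 18.1, 18.9 and 17.9 CPM at day 12. The 3 groups did not overlap, and day 12 lay between the others. Its fall at day 6 was the largest of the 49 genes (log2 -1.46 ± 0.051 (SE), edgeR adjusted p = 1.11e-12), and its rise between day 12 and day 6 was the second largest (log2 0.44 ± 0.053 (SE), edgeR adjusted p = 8.75e-06). Of the 75-base stretches of its longest transcript, 21.9% also occur in other annotated genes, with the predicted gene Gm3320 sharing the most.

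Foxm1, the forkhead factor that binds MuvB and B-MYB at G2/M promoters, changed less. Its libraries held 70.7, 73.1 and 73.1 CPM at day 0, 47.97, 47.7 and 48.7 CPM at day 6, and 45.3, 45.4 and 44.9 CPM at day 12. Day 6 lay below day 0, and day 12 just below day 6, without overlap. The log2 fold change was -0.59 ± 0.03 (SE), edgeR adjusted p = 9.9e-11 at day 6 against day 0, and -0.09 ± 0.03 (SE), edgeR adjusted p = 0.0245 at day 12 against day 6, where it was 0.10 and not called on TPM. This second call was lost without any 1 library of day 12 and without library A or C of day 6 (adjusted p between 0.0518 and 0.0798). Foxm1 shares exon bases on its own strand with Gm44596 and Tex52.

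All 5 mitotic kinases fell at day 6, and 4 of them rose again in part by day 12. Plk1, polo-like kinase 1, acts from mitotic entry to cytokinesis. It held 53.1, 50.5 and 52.6 CPM at day 0, 24.4, 21.96 and 20.6 CPM at day 6, and 26.6, 28.2 and 27.9 CPM at day 12. Every day 12 library lay above every day 6 library and far below day 0. The log2 fold change was -1.22 ± 0.051 (SE), edgeR adjusted p = 1.16e-11 at day 6 against day 0, and 0.30 ± 0.053 (SE), edgeR adjusted p = 0.00029 at day 12 against day 6. Aurka, Aurora A kinase of centrosomes and spindle poles, had 52.2, 50.6 and 51.1 CPM at day 0, 29.5, 30.3 and 28.2 CPM at day 6, and 34.4, 35.1 and 36.4 CPM at day 12. The groups again stood apart, with day 12 between the others; log2 fold changes were -0.81 ± 0.038 (SE) for day 6 against day 0 and 0.26 ± 0.038 (SE) for day 12 against day 6. Nek2, a kinase of centrosome separation, and Ttk, the checkpoint kinase MPS1, fell (log2 -0.93 and -0.79) and then rose (log2 0.15 and 0.22). Aurkb, Aurora B kinase, fell (log2 -0.86) and was not called between day 12 and day 6 (log2 0.08, edgeR adjusted p = 0.135).

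The 3 partners of Aurora B in the chromosomal passenger complex fell to 48.7% to 56.4% of their day 0 levels at day 6. Birc5 encodes survivin, the subunit that brings the complex to centromeres. Its libraries held 48.4, 46.9 and 48.1 CPM at day 0, 24.6, 24.3 and 23.6 CPM at day 6, and 25.3, 27.01 and 28.1 CPM at day 12. Day 6 and day 12 did not overlap, and both lay near the midpoint of zero and day 0. Its log2 fold change was -0.98 ± 0.042 (SE), edgeR adjusted p = 1.24e-11 at day 6 against day 0, and 0.15 ± 0.043 (SE), edgeR adjusted p = 0.0112 at day 12 against day 6. Without library C of day 12 the second value was not called (adjusted p = 0.0541). Cdca8, borealin, fell and rose more (log2 -1.04 and 0.29), and Incenp, the scaffold, fell (log2 -0.83) and was not called afterwards (log2 0.05, 95% interval -0.02 to 0.11).

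The 7 kinetochore and centromere genes all fell at day 6, and between day 12 and day 6 they parted, with 4 higher, 1 lower and 2 not called. Cenpa encodes the histone H3 variant that marks centromeres. It held 61.3, 63.4 and 62.1 CPM at day 0, 32.98, 31.6 and 31.1 CPM at day 6, and 29.9, 32.6 and 33.98 CPM at day 12. Day 12 overlapped day 6, and both lay well under day 0. The log2 fold change was -0.97 ± 0.044 (SE), edgeR adjusted p = 2.99e-11 for day 6 against day 0 and 0.01 (95% interval -0.09 to 0.11) for day 12 against day 6. Cenpe, the kinesin that carries chromosomes to the spindle equator, had 168, 172 and 172 CPM at day 0, 74.4, 70.3 and 71.7 CPM at day 6, and 68.01, 63.4 and 71.01 CPM at day 12. All 6 later libraries lay far below day 0, and day 12 overlapped day 6 (log2 -1.24 ± 0.038 (SE), edgeR adjusted p = 2.83e-13 at day 6 against day 0, and -0.10, adjusted p = 0.0556, at day 12 against day 6).

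Spc25, Ndc80 and Nuf2 encode subunits of the NDC80 complex, the microtubule grip of the kinetochore. Spc25 had the largest rise of the 49 genes between day 12 and day 6. Its libraries held 59.1, 60.1 and 55.3 CPM at day 0, 31.3, 31.9 and 28.2 CPM at day 6, and 40.7, 47.8 and 46.4 CPM at day 12. All day 12 libraries lay above day 6 and below day 0. It fell at day 6 (log2 -0.93 ± 0.059 (SE), edgeR adjusted p = 1.63e-09) and rose 1.47-fold by day 12 (log2 0.56 ± 0.06 (SE), edgeR adjusted p = 3.15e-06). Ndc80 and Nuf2 moved the same way, with log2 fold changes of -1.08 and -0.86 for day 6 against day 0 and 0.28 and 0.17 for day 12 against day 6.

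Cenpf, a very large protein of the outer kinetochore, went the other way. It held 185, 196 and 188 CPM at day 0, 98.7, 95.97 and 102 CPM at day 6, and 70.5, 60.2 and 72.5 CPM at day 12. The 3 groups did not overlap, and library B of day 12 was the lowest. The log2 fold change was -0.94 ± 0.053 (SE), edgeR adjusted p = 3.75e-10 at day 6 against day 0, and -0.55 ± 0.054 (SE), edgeR adjusted p = 1.38e-06 at day 12 against day 6. At day 12 against day 0 Cenpf had the largest fall of the 49 genes (2.81-fold, log2 -1.49 ± 0.054 (SE)). Sgo1, shugoshin, which guards centromeric cohesin, fell the least of the 7 at day 6 (log2 -0.62) and rose slightly by day 12 (log2 0.15 ± 0.046 (SE), edgeR adjusted p = 0.0155); the rise was not called without library C of day 12.

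Spindle checkpoint genes spanned a wide range. Bub3, the adaptor that loads BUB1 and BUBR1 onto kinetochores and also takes part in transcription and splicing outside mitosis, had 119, 115 and 115 CPM at day 0, 94.5, 99.4 and 93.5 CPM at day 6, and 93.3, 94.3 and 96.1 CPM at day 12. Its day 0 libraries stood above the others by a gap larger than the spread in any group. The fall at day 6 was 1.22-fold (log2 -0.28 ± 0.032 (SE), edgeR adjusted p = 1.1e-06), and day 12 overlapped day 6 (log2 -0.02, 95% interval -0.09 to 0.05). Bub1, the kinase it loads, fell by far more (log2 -1.12 ± 0.039 (SE)), while Mad2l1, the APC/C inhibitor MAD2, and Bub1b, BUBR1, lay between (log2 -0.84 and -0.66). Bub1, Mad2l1 and Bub1b each rose by day 12 (log2 0.21, 0.28 and 0.16).

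Among the genes of anaphase, Ube2c, the ubiquitin-conjugating enzyme of the APC/C, was the most abundant per transcript length, with 199.7 TPM at day 0. It held 108, 104 and 107 CPM at day 0, 44.8, 47.02 and 43.5 CPM at day 6, and 50.8, 54.1 and 58.02 CPM at day 12. The groups did not overlap, and day 12 stood a little above day 6. Its log2 fold change was -1.23 ± 0.044 (SE), edgeR adjusted p = 1.64e-12 at day 6 against day 0, and 0.27 ± 0.045 (SE), edgeR adjusted p = 0.000217 at day 12 against day 6. Cdc20 and separase, Espl1, fell (log2 -1.06 and -0.98) and were not called between day 12 and day 6 (log2 0.05 and -0.02). Cdca3, a protein degraded by the APC/C, did the same (log2 -0.96 and -0.10). Pttg1 encodes securin, the inhibitor of separase. It stood at 24.6, 22.9 and 24.7 CPM at day 0, 19.9, 18.8 and 22.01 CPM at day 6, and 20.4, 22.6 and 21.9 CPM at day 12. Its groups were close, and day 12 overlapped day 6. It had the smallest fall of the 49 at day 6 (log2 -0.26 ± 0.059 (SE), edgeR adjusted p = 0.00143) and at day 12 against day 0 (log2 -0.16 ± 0.059 (SE), edgeR adjusted p = 0.0285), where its value was 0.03 on TPM. The day 12 call was lost without library A or C of day 0 (adjusted p = 0.0915 and 0.0837) or library A of day 12 (0.142).

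The 5 mitotic kinesins fell by nearly the same amount, with log2 fold changes from -0.98 in Kif4 to -0.85 in Kif20a. Kif23, the kinesin of the centralspindlin complex at the spindle midzone, had the highest level of them per transcript length, on TPM at day 0. In CPM, which is not scaled by length, it held 76.5, 77.3 and 82.04 CPM at day 0, 40.6, 39.9 and 41.04 CPM at day 6, and 38.9, 40.6 and 39.5 CPM at day 12. Day 12 overlapped day 6, and both lay close to the midpoint of zero and day 0 (log2 -0.96 ± 0.035 (SE), edgeR adjusted p = 2.17e-12 at day 6 against day 0, and -0.03, 95% interval -0.11 to 0.05, at day 12 against day 6). Kif11, the motor that pushes spindle poles apart, and Kif4, a kinesin of chromosome arms, were not called in the second step (log2 -0.09 and -0.08). Kif2c, a microtubule depolymerase at centromeres, rose (log2 0.23 ± 0.037 (SE), edgeR adjusted p = 0.000158). Kif20a, which acts in cytokinesis, rose by log2 0.10 (edgeR adjusted p = 0.0274), a call lost without library B of day 12 or library A or C of day 6.

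The spindle-associated group held 2 of the 3 largest falls of the set. Hmmr, a microtubule-binding protein of spindle assembly, had 85.8, 85.8 and 82.2 CPM at day 0, 31.3, 31.6 and 30.00 CPM at day 6, and 36.3, 39.7 and 42.7 CPM at day 12. The 3 groups stood apart, with day 12 near the midpoint of zero and day 0. It fell 2.73-fold at day 6 (log2 -1.45 ± 0.049 (SE), edgeR adjusted p = 7.7e-13) and rose 1.27-fold by day 12 (log2 0.35 ± 0.05 (SE), edgeR adjusted p = 4.65e-05). Dlgap5, also called HURP, stabilises the fibres that pull on kinetochores. It had 79.2, 77.6 and 73.5 CPM at day 0, 31.2, 30.7 and 30.9 CPM at day 6, and 36.7, 38.2 and 37.8 CPM at day 12. The order of the groups was the same, without overlap (log2 -1.31 ± 0.036 (SE), edgeR adjusted p = 7.4e-14 at day 6 against day 0, and 0.28 ± 0.037 (SE) at day 12 against day 6).

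Prc1, the crosslinker of antiparallel microtubules at the midzone, had the highest level per transcript length of that group. It held 195, 196 and 184 CPM at day 0, 90.2, 92.2 and 86.05 CPM at day 6, and 95.5, 103 and 101 CPM at day 12. Day 6 lay far below day 0, and day 12 a little above day 6, without overlap (log2 -1.10 ± 0.038 (SE), edgeR adjusted p = 1.08e-12 and, for day 12 against day 6, 0.16 ± 0.038 (SE), edgeR adjusted p = 0.0035). Nusap1, which bundles spindle microtubules, had 122, 116 and 124 CPM at day 0, 57.7, 58.2 and 52.6 CPM at day 6, and 49.5, 50.6 and 56.00 CPM at day 12. Its day 12 and day 6 libraries overlapped (log2 -1.10 ± 0.048 (SE), edgeR adjusted p = 1.8e-11 at day 6 against day 0, and -0.11, adjusted p = 0.0758, at day 12 against day 6). Tpx2, the activator of Aurora A at the spindle, fell (log2 -0.75) and was not called afterwards (log2 0.07).

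Ckap2, a microtubule nucleator of the spindle, was the third member with a fall under 1.5-fold. Its libraries held 38.5, 39.5 and 39.4 CPM at day 0, 32.8, 31.1 and 28.3 CPM at day 6, and 28.7, 29.96 and 28.9 CPM at day 12. The day 6 libraries lay below day 0 by a smaller gap than in most members, and day 12 overlapped day 6 (log2 -0.34 ± 0.047 (SE), edgeR adjusted p = 9.27e-06 at day 6 against day 0, and -0.08, 95% interval -0.18 to 0.02, at day 12 against day 6). Aspm, a spindle pole protein whose loss causes microcephaly in humans, had 97.2, 99.9 and 97.2 CPM at day 0, 53.9, 53.2 and 53.5 CPM at day 6, and 45.9, 39.9 and 48.2 CPM at day 12. The 3 groups did not overlap, and library B of day 12 was the lowest. Aspm fell at day 6 (log2 -0.87 ± 0.049 (SE), edgeR adjusted p = 4e-10) and again by day 12 (log2 -0.26 ± 0.051 (SE), edgeR adjusted p = 0.000661).

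Cytokinesis genes fell together. Racgap1, the partner of Kif23 in centralspindlin, had 253, 253 and 237 CPM at day 0, 139, 137 and 137 CPM at day 6, and 141, 145 and 150.3 CPM at day 12. All day 12 libraries lay just above those of day 6, a difference that was not called (log2 0.08, edgeR adjusted p = 0.0794), while the fall at day 6 was (log2 -0.85 ± 0.034 (SE), edgeR adjusted p = 6.72e-12). Ect2, the exchange factor that switches on RhoA at the division plane, fell (log2 -1.04) and rose (log2 0.16). Anln, the ring scaffold anillin, fell (log2 -0.97) and was not called afterwards (log2 0.05).

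Top2a, the topoisomerase that untangles sister chromatids, had 452, 470.2 and 440.0 CPM at day 0, 233, 231 and 230.2 CPM at day 6, and 221, 225 and 233 CPM at day 12. Its day 6 libraries lay within 3 CPM of each other, day 12 overlapped them, and day 0 was about 2-fold higher (log2 -0.97 ± 0.033 (SE), edgeR adjusted p = 8.17e-13 at day 6 against day 0, and -0.03, 95% interval -0.10 to 0.04, at day 12 against day 6). Top2a shares exon bases on its own strand with the small RNA gene Gm23451. Mki67 encodes Ki-67, the coat of mitotic chromosomes used in pathology as a marker of dividing cells. It had 289, 315 and 324 CPM at day 0, 172, 165 and 184 CPM at day 6, and 120.2, 107 and 127 CPM at day 12. The groups did not overlap, and the lowest value was again in library B of day 12. It fell at day 6 (log2 -0.83 ± 0.058 (SE), edgeR adjusted p = 4.41e-09) and by day 12 had the largest further fall of the 49 genes (log2 -0.56 ± 0.058 (SE), edgeR adjusted p = 2.47e-06). At day 12 Mki67 stood at 38.2% of day 0, against a median of 54.3% over the 49 genes.

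**Figure D3:**
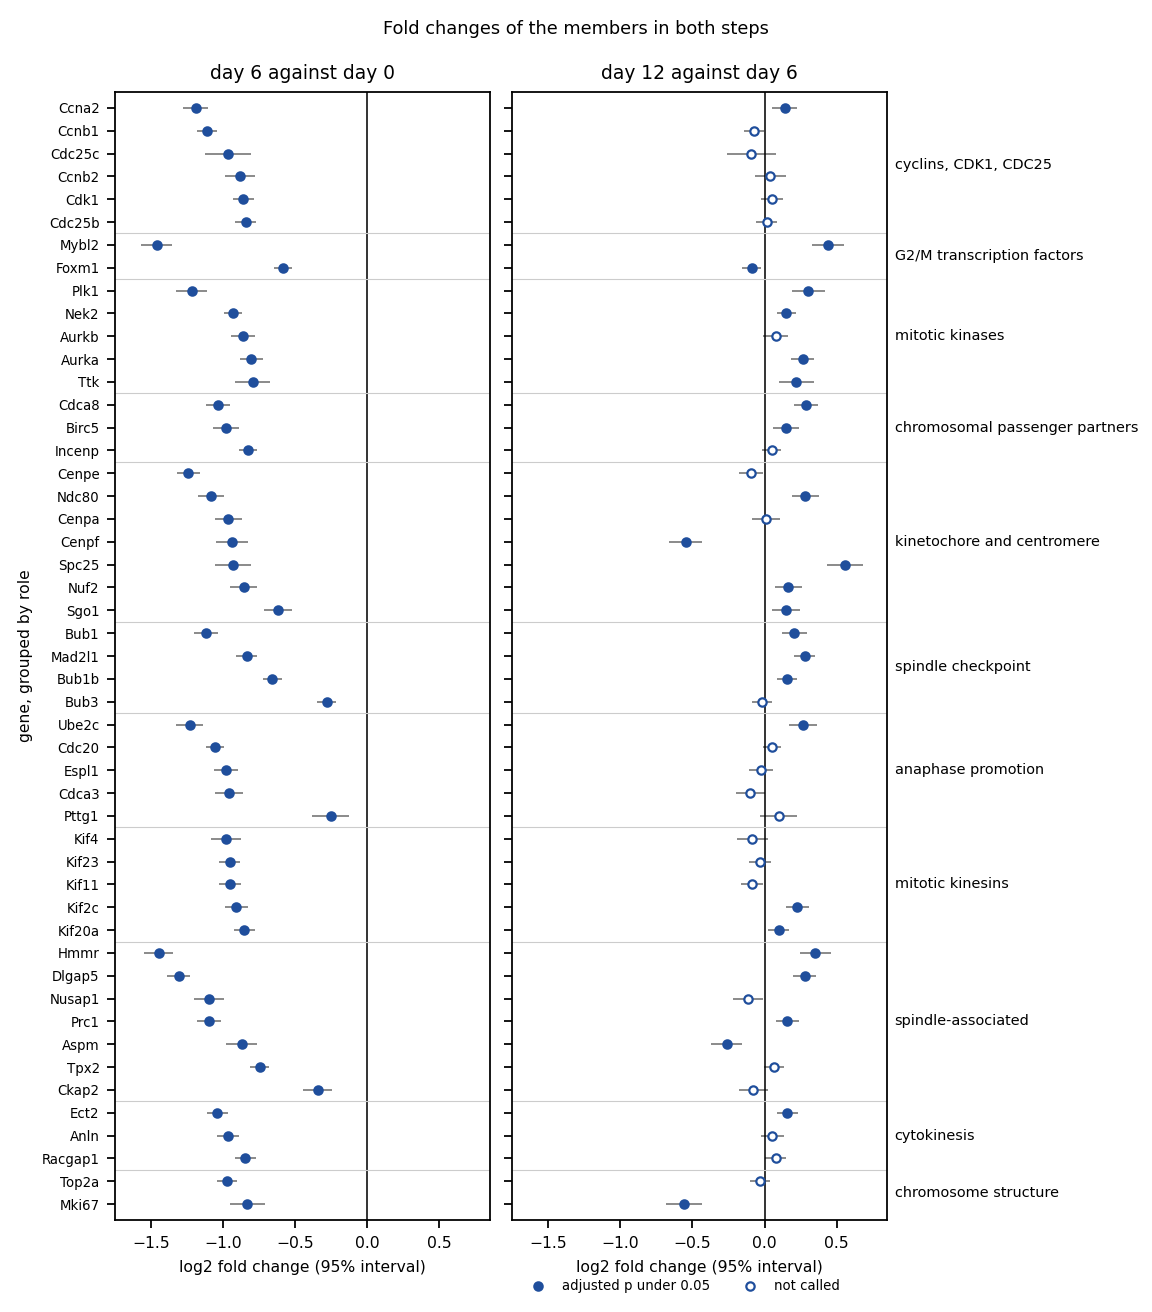
Log2 fold change of each of the 49 genes with its 95% interval, for day 6 against day 0 on the left and day 12 against day 6 on the right. Filled points passed an adjusted p under 0.05. All 49 lie left of zero at day 6, whereas at day 12 they spread on both sides, from -0.56 in Mki67 to 0.56 in Spc25.

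Of the 49 members 44.9% rose between day 12 and day 6, a share near the 42.6% among all 5133 genes that had fallen at day 6. Of the members 100% were still lower at day 12 than at day 0, against 77.1% of the 5133. These shares use the day 6 libraries in both steps and carry no test. In all, 23 members fell and were then not called, as did 13.5% of all tested genes, or 11.8% counting those still lower at day 12 than at day 0. Another 22 members fell and then rose, as did 13.4% of all genes, and all 22 were still lower at day 12 than at day 0, which leaves 7.88% of all genes. A fall in both steps was called in 4.49% of all genes; Aspm, Cenpf, Foxm1 and Mki67 showed it. On TPM, Aspm was not called in the later step and Foxm1 was higher there without a call.

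The 3 members with the longest transcripts were among those 4. In the GENCODE M21 annotation the longest transcript has 11130 bases for Cenpf, 10061 for Mki67 and 9867 for Aspm, and the median over the 49 genes is 3645. Between day 12 and day 6 the fold change moved with transcript length over all protein-coding genes with a mean of at least 5 CPM. The median log2 fold change was 0.06 in 1837 genes under 2 kb and -0.23 in 640 genes of 8 kb or more, whose middle 50% ran from -0.39 to -0.08. Aspm (log2 -0.26) lay inside that range, and Cenpf (log2 -0.55) and Mki67 (log2 -0.56) lay below it. Mad2l1, with a longest annotated transcript of 7557 bases, rose (log2 0.28). The longest annotated transcript need not be the one expressed. At day 0 Mad2l1 had 85.9 CPM and 60.6 TPM, where Aspm had 98.1 CPM and 13.5 TPM. The expressed form of Mad2l1 may thus be much shorter, and its place by length is uncertain. Spearman's rho between length and fold change was -0.31 across the 49 genes and -0.31 across 10351 genes in this step, and -0.00214 and 0.0537 for day 6 against day 0. Genes in 1 set of libraries are not independent, so these values are descriptions. Library B of day 12, the lowest in all 3 genes, also had the highest mitochondrial share of its group, 3.96% of counts. Without it the log2 fold changes were -0.47 in Cenpf, -0.49 in Mki67 and -0.19 in Aspm, and all were still called. The part of transcript length, RNA quality or library preparation in these 3 falls was not tested.

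**Figure D4:**
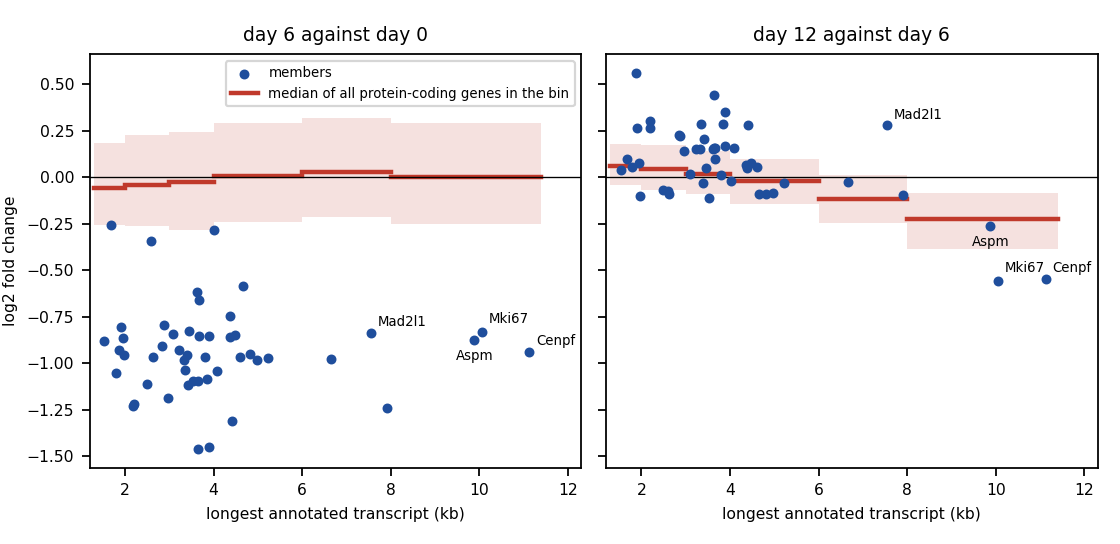
Log2 fold change against the longest annotated transcript in kb, with 1 point a member, for day 6 against day 0 on the left and day 12 against day 6 on the right. Red lines give the median and shading the middle 50% of all protein-coding genes in a length bin. The line is near zero at every length on the left and falls to -0.23 at 8 kb or more on the right, where Cenpf and Mki67 lie below the shading.

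Other genes of the division machinery were read from lists that leave out the 49 genes. Over all tested genes 31.4% fell and 33.5% rose at day 6 against day 0. Of 38 other kinetochore and centromere genes, 32 fell and 4 rose at day 6 against day 0 (median log2 -0.51). They include Sgo2a, a paralogue of Sgo1 (log2 -1.04 ± 0.044 (SE)) and Zwilch, which brings dynein to kinetochores (-1.03 ± 0.05 (SE)). Of 42 other kinesins and spindle factors, 37 fell and 4 rose (median log2 -0.68), with Pimreg (-1.24 ± 0.041 (SE)), Spag5, a protein of spindle poles and kinetochores (-0.99 ± 0.033 (SE)), and Ckap2l (-0.94 ± 0.034 (SE)) giving the smallest adjusted p. Of 20 condensin and cohesin genes, 18 fell and 2 rose, at a median of -0.23. Among them were the cohesin subunit Rad21 (-0.88 ± 0.034 (SE)), sororin, Cdca5 (-0.89 ± 0.042 (SE)), and the condensin subunit Ncapg (-0.75 ± 0.037 (SE)). Of 50 DNA replication genes, 43 fell and 2 rose, at a median of -0.29, with Rrm2, Pold1 and Pold2 at -1.07, -0.84 and -0.66.

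APC/C subunits and coactivators are used in G1 as well as in mitosis. Of 17 such genes 10 fell and 1 rose at day 6 (median log2 -0.14), where 31.4% of all tested genes fell and 33.5% rose. The smallest adjusted p belonged to the APC/C partner enzyme Ube2s (-0.83 ± 0.032 (SE)) and the APC/C inhibitor Fbxo5, also called EMI1 (-0.74 ± 0.056 (SE)). Next came its G1 activator Fzr1, CDH1 (-0.30 ± 0.034 (SE)). Of 23 genes of DREAM, MuvB and the RB and E2F families, 11 fell and 2 rose (median log2 -0.11). The atypical repressors E2f8 and E2f7 fell (log2 -1.12 ± 0.045 (SE) and -0.65 ± 0.047 (SE)), as did the MuvB subunit Lin9 (-0.36 ± 0.041 (SE)). Lin37, Lin52 and Rbbp4, also of MuvB, were not called (log2 0.03, -0.05 and 0.01), and Rbl2, which encodes the DREAM pocket protein p130, rose (log2 0.21 ± 0.031 (SE), edgeR adjusted p = 2.03e-05).

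**Figure D5:**
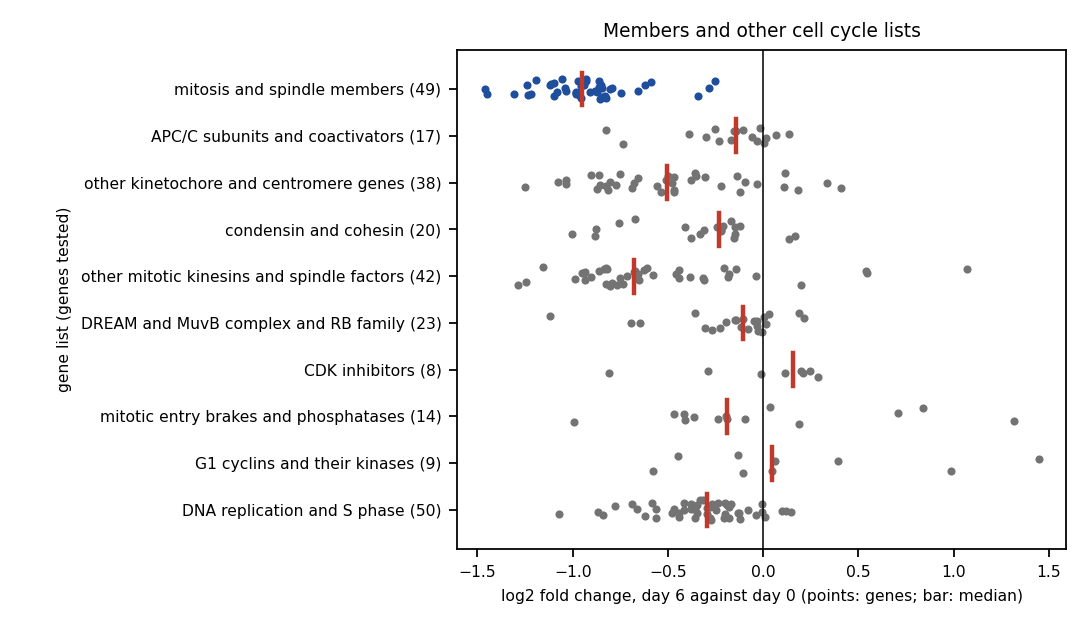
Log2 fold change of day 6 against day 0 for each tested gene of the 49 mitosis and spindle genes and of 9 other lists, with a red bar at the median of each. The 49 genes have the lowest median, -0.95, and the CDK inhibitors the highest, 0.16. Vertical scatter within a row only separates the points.

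Of the 8 CDK inhibitors, 5 rose and 2 fell at day 6, where 33.5% of all tested genes rose and 31.4% fell. The rises were small. Cdkn2a, which encodes p16 and ARF, had 469, 463 and 459.8 CPM at day 6, above the 393, 374 and 373 CPM of day 0 (log2 0.29 ± 0.033 (SE), edgeR adjusted p = 1.41e-06). Cdkn1b, which encodes p27, stood at 103 ± 0.716 CPM at day 6 and 87.3 ± 0.691 CPM at day 0 (mean ± SD of 3, log2 0.24 ± 0.028 (SE), edgeR adjusted p = 1.28e-06). Cdkn1c, Cdkn2b and Cdkn2c rose by log2 0.21, 0.12 and 0.20. All 5 then fell between day 12 and day 6, by log2 values from -0.20 to -0.11. Cdkn1a, which encodes the p53-induced inhibitor p21, had 135, 131 and 131 CPM at day 0, 133, 137 and 123 CPM at day 6, and 124, 125 and 118 CPM at day 12. Its libraries overlapped at day 6 and day 0, and the difference was not called (log2 -0.01, 95% interval -0.10 to 0.07, edgeR adjusted p = 0.772). Cdkn3, a phosphatase of CDK1 and CDK2 that peaks in mitosis, fell with the mitotic genes (log2 -0.81 ± 0.099 (SE), edgeR adjusted p = 2.9e-06), and Cdkn2d fell by 0.29 on the log2 scale.

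A list of 14 regulators of mitotic entry holds both kinases that restrain CDK1 and genes that promote entry, with phosphatases and checkpoint kinases. Of these, 3 rose and 9 fell at day 6, where 33.5% of all tested genes rose and 31.4% fell. Gadd45a, a stress-induced inhibitor of CDK1 and cyclin B, stood at 61.5 ± 0.877 CPM at day 6 and 24.7 ± 0.586 CPM at day 0 (log2 1.32 ± 0.037 (SE), edgeR adjusted p = 1.13e-13). Wee1, the kinase that blocks CDK1, stood at 75.2 ± 0.351 CPM at day 6 and 45.99 ± 2.66 CPM at day 0 (log2 0.71 ± 0.038 (SE), edgeR adjusted p = 1.87e-10). Mastl, the Greatwall kinase that promotes mitosis, fell (log2 -0.995 ± 0.043 (SE), edgeR adjusted p = 1.61e-11). Of 9 tested G1 cyclins, related cyclins and their kinases, 3 rose and 3 fell, near the 33.5% and 31.4% of all tested genes. Ccng1, a p53 target, and Ccnd1, cyclin D1, rose (log2 1.45 ± 0.046 (SE), edgeR adjusted p = 4.29e-13, and 0.99 ± 0.11 (SE), edgeR adjusted p = 1.14e-06), and Ccnd3, cyclin D3, fell (log2 -0.58 ± 0.034 (SE), edgeR adjusted p = 6.21e-10). Ccnd2 did not pass the filter.

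Between day 12 and day 6, 18 of the 38 other kinetochore genes rose and 2 fell, 13 of the 42 other spindle factors rose and 6 fell, and 26 of the 50 replication genes rose and 5 fell, where 22.6% of all genes rose and 22.7% fell. Of the 20 condensin and cohesin genes 1 was higher and 11 were lower. Against day 0, day 12 was lower in 28 of 38, 35 of 42, 36 of 50 and 19 of 20 genes of these 4 lists, and in 31.7% of all genes. The lists differ in size and in the length of their transcripts, and differences between them were not tested.

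Some markers of other cell types also moved between the days. Fibroblast and pericyte markers summed to 7.93 to 8.32 CPM at day 0, 7.09 to 7.50 CPM at day 6 and 11.3 to 13.4 CPM at day 12, with 4 of 5 past the filter. Of these 4, 2 rose and 1 fell at day 6. Their log2 fold changes ran from -3.46 to 6.10, so the sum hides opposite moves. Immune markers summed to 16.4 to 18.6, 14.8 to 16.6 and 13.4 to 14.9 CPM at day 0, day 6 and day 12, with 2 of 5 past the filter, Cd3e at 0 in every library and most of the sum from Cd68. Of these 2, Cd68 was not called at day 6, and the other, a minor part of the sum, fell (log2 -6.06). In that step 31.4% of all tested genes fell and 33.5% rose. Podocyte markers summed to 88.9 to 92.3, 64.6 to 68.9 and 69.9 to 71.1 CPM, nearly all of it Podxl, so this sum was lower at day 6 than at day 0 along with the members. Endothelial markers did not exceed 0.482 CPM in sum in any library, markers of the loop of Henle and distal tubule 0.214 CPM, and those of the collecting duct 1.45 CPM. Their part in the falls of the 49 genes was not tested.

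The annotation sets some limits on single genes. Exons of 12 members overlap an antisense gene, including those of Ccna2, Cdc25b, Plk1, Nek2, Cdca8, Cdc20, Ube2c, Kif4, Nusap1 and Prc1. Whether the counting used strand is not given in the sources used here, so reads of these genes and of their antisense partners may not be separated. Only Ccnb1 and Mybl2 shared 5% or more of the 75-base stretches of their longest transcript with other annotated genes.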

How the data were processed

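From the authors came 2 tables of the same 9 libraries, deposited as raw whole-number counts of each gene and as TPM. Tools named per the submitters' processing notes are STAR 2.7.8a and RSEM 1.3.3, with cutadapt 2.3 and FastQC 0.11.8, on GRCm38; which tool did what, and whether strand was used, is not given. Counts of 4 transgene rows were left out of library sizes.

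Genes passing filterByExpr by group were scaled by TMM. One quasi-likelihood fit (edgeR 4.0.16 under R 4.3.3) took all 9 libraries, each group having its own mean, which left 6 residual df. Benjamini-Hochberg adjustment ran over 16353 genes. A gene rose or fell at an adjusted p under 0.05 and is otherwise not called. The SE is the log2 fold change over the root of F. One count was worth 0.0119 to 0.0172 CPM. The code was tested on simulated data.

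Alternatives were other scaling factors, no filter, DESeq2 1.42.0, limma 3.58.1 on log2(TPM + 1) and log2(TPM + 0.1), the compared groups alone, a replicate block, each library left out, and, added after the data were seen, mitochondrially encoded genes left out. TPM were the authors' and carry no depth. Libraries of 1 group differed by more than sampling noise, with a chi-square per gene of 5.225 to 41.41.

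Members and lists were chosen with earlier results of these data known. Values in every library are given for Ccnb1, Cdk1, Top2a, Mki67 and Foxm1, the 4 most extreme members at each end of a comparison, and the member with the highest TPM in each of 11 roles. Of another list, the 3 smallest adjusted p at day 6 are named, with all CDK inhibitors, except for 1 gene not reported here; the MuvB subunits and Rbl2 were named after their values were seen, as were the length bins. Exons came from GENCODE M21, in which 49 members were matched.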

Additional observations from a re-analysis of the deposited data

How the results depend on the processing

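All 49 members fell at day 6 against day 0 under every alternative run. Between day 12 and day 6 the members' calls depended on scaling, with 22 higher and 4 lower in the reported fit. RLE factors gave 7 lower. On log2(TPM + 1), 38 were higher and 2 lower, with 7998 genes higher and 878 lower over the whole table, where the reported fit had 3702 and 3706; on log2(TPM + 0.1) the counts were 38, 2, 7927 and 873. The direction changed on log2(TPM + 1) and log2(TPM + 0.1) for Foxm1 (0.0995 and 0.104), Bub3 (0.19 and 0.20), Cdca3 (0.0965 and 0.0995), Kif11 (0.12 and 0.13), Ckap2 (0.15 and 0.16) and Top2a (0.24 and 0.24). Another 7 members, called in neither fit, also turned positive on both. For day 12 against day 0, Pttg1 changed direction (0.0317 and 0.0321), and 1939 and 1965 genes were lower in all, with 8529 higher on log2(TPM + 0.1). The cause was not tested.

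With the replicate letter as a block, 49 members were lower at day 6, 22 were higher and 4 lower between day 12 and day 6, and 49 were lower at day 12 against day 0. Over all genes the block gave 5405 higher and 5080 lower, 3593 and 3628, and 5611 and 5132 in these comparisons. Deviations of same-lettered libraries correlated at -0.0834 to 0.0783, and those of other letters at -0.11 to 0.0954. No pairing by letter was seen. With 3 libraries a group these values cannot exclude a culture or preparation shared by a letter.

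Leaving out each library in turn gave 49 to 49 members lower at day 6 against day 0, 19 to 24 higher and 3 to 6 lower between day 12 and day 6, and 48 to 49 lower at day 12 against day 0. Without mitochondrially encoded genes the members' counts were 49, 22, 4 and 49. Having 3 libraries a group and unknown culture replication limit the precision, and only log2 fold changes well above the libraries' spread can be read in the later step.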
